A study of Mus musculus with 12 samples.

Results

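Norrin and Wnt vascular signaling was followed here through 10 genes, Ndp, Fzd4, Lrp5, Tspan12, Lef1, Axin2, Apcdd1, Sox7, Sox17 and Sox18. They were listed by gene symbol, with earlier results of these data already known. All 10 were found among the 50559 genes of the count table and all 10 had enough counts to be tested in every comparison. Norrin, the product of Ndp, is a secreted ligand that binds the receptor Frizzled-4 (Fzd4) together with the coreceptor Lrp5 and the tetraspanin Tspan12. Receptor binding stabilizes beta-catenin, which enters the nucleus and acts through TCF and LEF factors such as Lef1. In the retina this pathway is known for driving growth of the deeper vessel layers and for keeping the endothelial barrier tight, and Sox7, Sox17 and Sox18 form the SOXF group of endothelial transcription factors that act in the same vessels.

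The data were poly-A RNA-Seq counts from retinas of WT C57BL6/J mice at postnatal day 28, in 4 groups of 3 libraries. IgG retinas came from pups given 30 µg of a rat IgG isotype under the skin on day 1, and APB5 retinas from pups given 30 µg of APB5, a rat monoclonal antibody that blocks PDGFRβ and so the recruitment of pericytes to new vessels. IgG+Mino and APB5+Mino retinas came from pups that also received minocycline, a tetracycline antibiotic, by daily intraperitoneal injection from day 5 to day 27 at 45 mg/kg. No group was left without an antibody injection, and pericyte recruitment was blocked by antibody rather than by a gene deletion. The study counts 3 mice per group, so the spread between libraries of a group was taken as that between mice.

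Total counts ranged from 52740545 to 59411044 per library. APB5 replicate 3 stood apart, with a score of 126.4 on the first principal component (38.4% of the variance) against −53.9 to 25.7 in the other 11 libraries. Its summed level of 15 microglia and macrophage markers was 635 CPM (counts scaled to library size) against 86.2 and 97.9 CPM in the other APB5 libraries, and that of the fibroblast markers was 889 CPM against 93.8 and 106 CPM. The Müller glia marker Rlbp1 was detected in all 12 libraries, as were the endothelial markers Pecam1 (9.46 to 15.5 CPM) and Cdh5 (4.14 to 9.68 CPM). Xist was high in all 3 IgG libraries, in APB5 replicate 3 and in APB5+Mino replicate 3 and near 0 in the other 7, so in IgG+Mino against IgG the treatment and the sex of the mice cannot be told apart. In APB5 against IgG the same holds for APB5 replicates 1 and 2, since the only APB5 library with high Xist is the one that stood apart. Pdgfrb, which encodes the target of the antibody, was 15.5 ± 3.99 CPM (mean ± SD, n = 3 in each group) in IgG, 16.2 ± 2.08 in IgG+Mino, 23.2 ± 12.8 in APB5 and 14.7 ± 0.379 in APB5+Mino. An antibody against the protein need not change this RNA, so it is no check of the labels.

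To compare levels between genes, CPM were divided by the length of each gene's canonical transcript in kb. Over the 12 libraries, Axin2 had the highest level at 7.82 ± 1.18 CPM per kb (mean ± SD, n = 12), followed by Ndp at 4.995 ± 1.04 and Fzd4 at 4.88 ± 1.03, which differed from each other by less than their spread. Lrp5 (3.10 ± 1.01 CPM per kb) and Tspan12 (2.71 ± 0.532) came next and also differed by less than their spread, and Apcdd1 stood at 2.10 ± 0.316. The SOXF genes and Lef1 were lowest, with Sox18 at 1.34 ± 0.698, Sox17 at 0.779 ± 0.258, Lef1 at 0.631 ± 0.176 and Sox7 at 0.223 ± 0.111 CPM per kb. Sox18 and Sox17, and Sox17 and Lef1, lay within their spread of each other, while Sox7 lay below Lef1 by more than its spread. These spreads mix all groups, and genes were not compared within libraries. By group the mean of Sox18 was above that of Sox17 throughout. It was 1.185 against 0.984 CPM per kb in IgG and 1.09 against 0.543 in IgG+Mino. In APB5 it was 2.315 against 0.934, and in APB5+Mino 0.768 against 0.656. Depth differed accordingly, from 25 to 119 counts per library for Sox7 and 41 to 282 for Sox18 up to 1367 to 2733 for Fzd4 and 1428 to 2134 for Axin2.

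The promoters of the ligand and of Axin2 and Lef1 are shown because these 3 genes stand at the start and at the readout of the pathway. Windows were available in RefSeq (GRCm38.p6) for 5 of the 10 genes, Ndp, Fzd4, Tspan12, Axin2 and Lef1, with 4 windows for Lef1, and were cut to the 250 bases before the start site. Lrp5, Apcdd1, Sox7, Sox17 and Sox18 had no window. Capitals mark CTTTG, the core letters that TCF and LEF factors recognize, or its reverse complement CAAAG, and the sequences run 5′ to 3′ on the strand of the gene. They lie at chr11:108920099-108920348 (plus strand) for Axin2, chrX:16911775-16912024 (minus strand) for Ndp and chr3:131156044-131156293 (plus strand) for the start site of Lef1 that is furthest downstream.
Axin2: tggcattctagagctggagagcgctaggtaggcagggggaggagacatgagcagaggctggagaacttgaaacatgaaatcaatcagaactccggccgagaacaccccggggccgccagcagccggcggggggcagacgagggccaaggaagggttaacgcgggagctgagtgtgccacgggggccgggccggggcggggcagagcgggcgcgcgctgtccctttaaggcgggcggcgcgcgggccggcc
Ndp: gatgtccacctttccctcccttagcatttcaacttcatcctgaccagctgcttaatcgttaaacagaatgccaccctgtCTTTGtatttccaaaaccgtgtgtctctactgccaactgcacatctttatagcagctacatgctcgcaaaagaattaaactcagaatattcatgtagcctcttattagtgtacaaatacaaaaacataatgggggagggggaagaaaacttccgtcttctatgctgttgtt
Lef1: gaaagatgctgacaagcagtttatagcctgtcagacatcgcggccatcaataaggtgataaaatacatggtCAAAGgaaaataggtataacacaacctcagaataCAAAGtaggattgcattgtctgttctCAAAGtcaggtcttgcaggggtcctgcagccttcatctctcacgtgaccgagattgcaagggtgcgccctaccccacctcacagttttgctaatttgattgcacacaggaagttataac
The Axin2 window held no match and 69.2% G and C, the Ndp window held 1 match 171 bases before the start and 41.2% G and C, and the Lef1 window held 3 matches and 44.8% G and C. This was the Lef1 window with the most matches. The Lef1 windows further upstream, not printed, held 1, 2 and 1 matches and 66.4%, 66.4% and 50.8% G and C. CTTTG occurs on either strand in 48.6% of all 32851 windows of this length, and in 6 of the 8 windows of these 5 genes. The genes with a match were Ndp, Tspan12 and Lef1. The 8 windows are not independent, since 2 of the Lef1 windows (131110047-131110296 and 131110073-131110322) overlap and share 1 match. The longer CTTTGA, which contains CTTTG, occurs in 13.8% of all windows and in 1 of the 8, the printed Lef1 window, 180 and 120 bases before the start. ACAAT, the core letters of SOX factors, occurs in 27.7% of all windows and in the same Lef1 window, 131 bases before the start. The Fzd4 window held none of the 3. These matches describe the letters only and were not set against binding data.

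**Figure D1:**
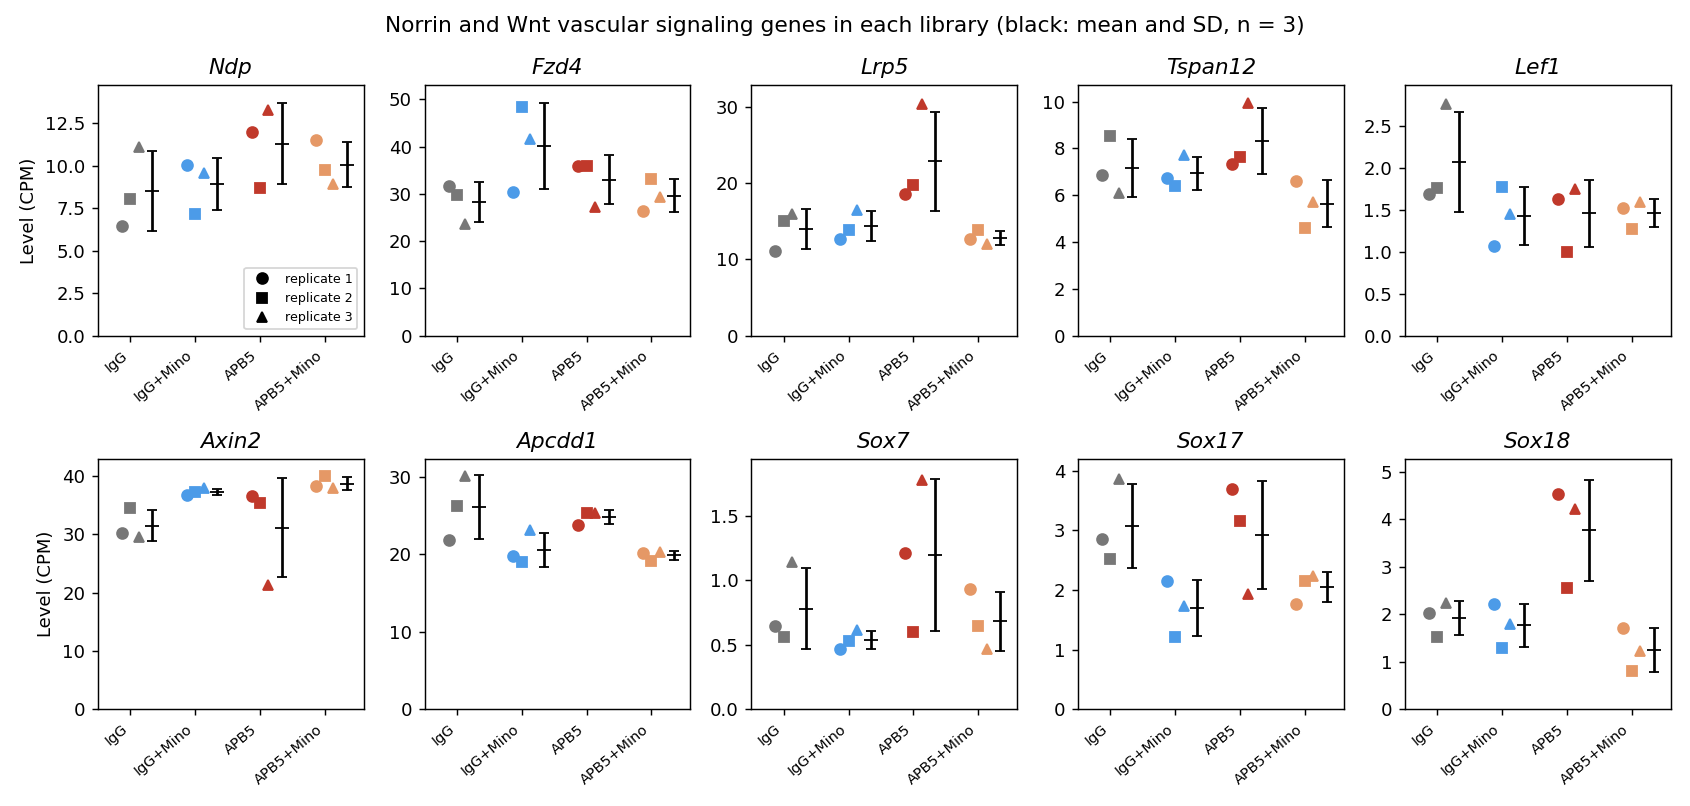
Level in CPM (y axis, starting at 0) of each of the 10 genes in the 12 libraries, by group (x axis). Symbols are libraries by replicate number and black bars are the mean and SD of 3 libraries. The 3 APB5 libraries of Sox18 (2.56 to 4.52 CPM) sit above every library of the other groups (0.802 to 2.23 CPM).

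The first question was whether blocking pericyte recruitment changed these genes, which APB5 against IgG addresses. None of the 10 passed the test. The closest were Sox18 and Lrp5, both higher in every APB5 library than in any IgG library. Genes counted as called when the quasi-likelihood test of edgeR, adjusted over all tested genes after Benjamini-Hochberg, gave a p-value no larger than 0.05 and the log2 fold change was 1 or more in size. By this rule 0 of the 10 genes were called, against 0.0% of the 20350 genes tested, and 0 passed at any fold, also against 0.0%. By an unadjusted p-value under 0.05 there were 2 of 10 genes against 7.23% of all genes, and groups that did not overlap were found for 2 higher and 0 lower genes against 7.79% and 7.89% of all genes. The median log2 fold change was 0.23 over the 10 genes and −0.002 over all genes, with 6 of the 10 higher in APB5.

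The second question was what minocycline changed in retinas given APB5, for which APB5+Mino was compared with APB5. Here too 0 of 10 genes were called, against 1.66% of all genes, and none passed at any fold, against 4.82%. Sox18, Lrp5, Tspan12 and Apcdd1 were lower in every APB5+Mino library than in any APB5 library, and Axin2 was higher in every one. Unadjusted p-values under 0.05 were found for 4 of 10 genes against 35.9% of all genes, all 4 of them lower with minocycline. Groups that did not overlap were found for 1 higher and 4 lower genes, against 23.5% and 22.8% of all genes. The median log2 fold change was −0.43 over the 10 genes, 9 of which were lower, and −0.02 over all genes.

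Minocycline without pericyte blockade and APB5 under minocycline gave medians closer to 0. In IgG+Mino against IgG, 0 of 10 genes were called and 0 passed at any fold, against 0.0298% of all genes by either rule, 2 had an unadjusted p-value under 0.05 against 8.37%, and groups did not overlap for 1 higher and 1 lower gene against 7.03% and 7.35%. In APB5+Mino against IgG+Mino, 0 of 10 genes were called against 1.24% and none passed at any fold against 8.09%. By an unadjusted p-value under 0.05 there was 1 gene against 29.3%, and groups did not overlap for 1 higher and 0 lower genes against 17.7% and 17.6%. Medians over the 10 genes were −0.09 and −0.01 in these comparisons. The interaction tests whether the minocycline difference in APB5 retinas differed from that in IgG retinas. In it 0 of 10 genes passed against 0.0141% of all genes by either rule, and 3 had an unadjusted p-value under 0.05 against 17.1%. It includes IgG+Mino against IgG, so treatment and sex cannot be told apart in the interaction either.

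**Figure D2:**
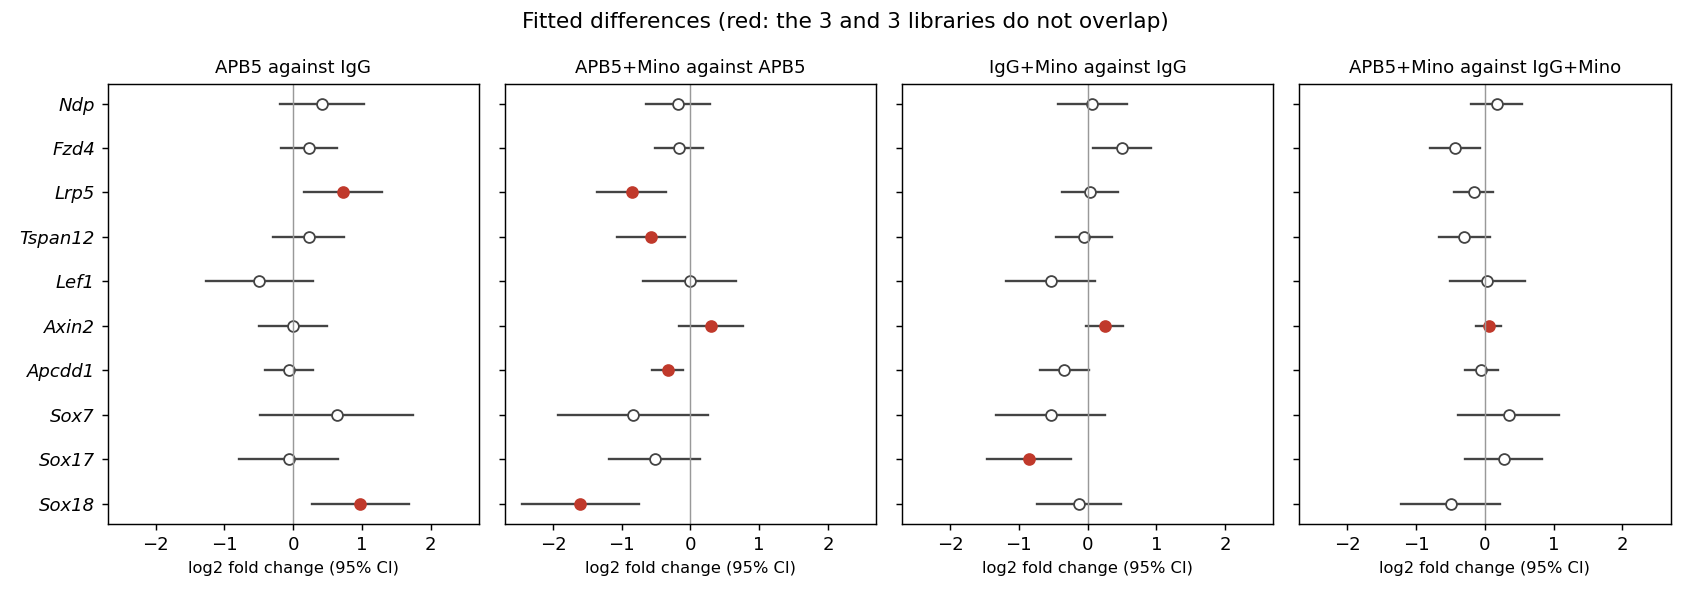
Fitted log2 fold change (points) with its 95% confidence interval (lines) for each gene (y axis) in the 4 pairwise comparisons. Red points are genes whose 3 and 3 libraries do not overlap in CPM. Sox18 and Lrp5 are to the right of 0 in APB5 against IgG and to the left of 0 in APB5+Mino against APB5.

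Ndp encodes the ligand of the pathway, lies on chromosome X (16751756 to 16778013, minus strand, GRCm39) and in the retina is known as a product of Müller glia. It measured 6.44, 8.07 and 11.1 CPM in IgG, 10.05, 7.17 and 9.56 CPM in IgG+Mino, 11.97, 8.67 and 13.3 CPM in APB5 and 11.5, 9.75 and 8.93 CPM in APB5+Mino. The groups overlapped in every comparison, and the highest library was APB5 replicate 3. The difference was 0.42 on the log2 scale (SE 0.26, adjusted p = 0.703) in APB5 against IgG and −0.18 (SE 0.20, adjusted p = 0.524) in APB5+Mino against APB5. The summed level of 12 Müller glia markers, which do not include Ndp, was 3382 ± 372 CPM in APB5 and 3577 ± 502 CPM in IgG (n = 3), while the median log2 fold change of the 12 was 0.20 with 7 higher, or 0.05 without APB5 replicate 3. Their part in the level of Ndp was not tested.

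Fzd4, the receptor for Norrin, is on chromosome 7 (89053563 to 89062342, plus strand). It measured 31.6, 29.8 and 23.6 CPM in IgG, 30.3, 48.4 and 41.6 CPM in IgG+Mino, 36.0, 36.0 and 27.1 CPM in APB5 and 26.4, 33.3 and 29.4 CPM in APB5+Mino. IgG+Mino replicates 2 and 3 were the highest of all libraries, while replicate 1 lay inside the IgG range. In IgG+Mino against IgG the log2 fold change was 0.50 (SE 0.19, adjusted p = 0.585), and in APB5+Mino against IgG+Mino it was −0.43 (SE 0.16, adjusted p = 0.117). The interaction was −0.65 (SE 0.26, adjusted p = 0.237). The summed level of 18 endothelial markers was 529 ± 22.2 CPM in IgG and 515 ± 71.8 CPM in IgG+Mino (n = 3), and 16 of these 18 markers were lower in IgG+Mino, with a median log2 fold change of −0.45. Their part in the level of Fzd4 was not tested.

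Lrp5, the coreceptor, is on chromosome 19 (3634821 to 3736643, minus strand). It measured 11.1, 15.0 and 15.9 CPM in IgG, 12.6, 13.9 and 16.5 CPM in IgG+Mino, 18.6, 19.7 and 30.3 CPM in APB5 and 12.6, 13.8 and 12 CPM in APB5+Mino. All 3 APB5 libraries lay above all 9 others, and APB5 replicate 3 was far above the other two. The log2 fold change was 0.72 (SE 0.24, 95% confidence interval 0.15 to 1.29, adjusted p = 0.664) in APB5 against IgG and −0.86 (SE 0.21, 95% confidence interval −1.35 to −0.36, adjusted p = 0.0547) in APB5+Mino against APB5. Without APB5 replicate 3 these values were 0.45 (adjusted p = 0.865) and −0.59 (adjusted p = 0.00642), so the difference was smaller and more even without the library that stood apart. The microglia, gliosis and pigment epithelium sums were also highest in that library, and their part in the level of Lrp5 was not tested. Lrp5 in APB5+Mino against APB5 passed the adjusted p-value in 7 of 15 alternative settings, always below the fold threshold.

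Tspan12, which strengthens Norrin signaling at Fzd4, is on chromosome 6 (21771389 to 21852619, minus strand). It measured 6.87, 8.54 and 6.11 CPM in IgG, 6.72, 6.37 and 7.74 CPM in IgG+Mino, 7.34, 7.65 and 9.94 CPM in APB5 and 6.60, 4.6 and 5.72 CPM in APB5+Mino. The 3 APB5+Mino libraries lay below the 3 APB5 libraries but overlapped with IgG and IgG+Mino. With minocycline in APB5 retinas the log2 fold change was −0.57 (SE 0.21, 95% confidence interval −1.07 to −0.08, adjusted p = 0.102), and it was 0.22 (SE 0.22, adjusted p = 0.789) in APB5 against IgG.

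Lef1, a nuclear partner of beta-catenin and itself a target of the pathway, is on chromosome 3 (130903919 to 131018005, plus strand). It measured 1.70, 1.77 and 2.76 CPM in IgG, 1.07, 1.77 and 1.45 CPM in IgG+Mino, 1.63, 1.00 and 1.75 CPM in APB5 and 1.52, 1.27 and 1.60 CPM in APB5+Mino. IgG replicate 3 was the highest and the other libraries lay between 1.00 and 1.77 CPM. It differed by −0.49 on the log2 scale (SE 0.33, adjusted p = 0.715) in APB5 against IgG, −0.54 (SE 0.29, adjusted p = 0.603) in IgG+Mino against IgG and −0.01 (SE 0.28, adjusted p = 0.978) in APB5+Mino against APB5. The last has a 95% confidence interval of −0.69 to 0.66, from 55 to 160 counts per library.

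Axin2, a scaffold of the complex that degrades beta-catenin and a feedback target of the pathway in many tissues, is on chromosome 11 (108811169 to 108841609, plus strand). It measured 30.2, 34.5 and 29.6 CPM in IgG, 36.8, 37.2 and 37.9 CPM in IgG+Mino, 36.6, 35.4 and 21.3 CPM in APB5 and 38.2, 39.95 and 37.9 CPM in APB5+Mino. Both minocycline groups lay above the groups without it, and APB5 replicate 3 was the lowest of all. It differed by 0.25 on the log2 scale (SE 0.12, adjusted p = 0.585) in IgG+Mino against IgG and 0.30 (SE 0.20, adjusted p = 0.298) in APB5+Mino against APB5, where leaving out APB5 replicate 3 gave 0.10 (adjusted p = 0.397). In APB5 against IgG it was −0.01 (SE 0.21, adjusted p = 0.994), and 0.20 without APB5 replicate 3. With library size as the only scaling it was 0.02, so no direction can be given for this comparison.

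Apcdd1, an inhibitor of Wnt signaling at the cell membrane that is found in vessels of the retina and brain, is on chromosome 18 (63055302 to 63094250, plus strand). It measured 21.8, 26.3 and 30.1 CPM in IgG, 19.8, 19.0 and 23.1 CPM in IgG+Mino, 23.8, 25.4 and 25.3 CPM in APB5 and 20.2, 19.2 and 20.3 CPM in APB5+Mino. The 3 libraries lay close together within APB5 and within APB5+Mino, and those groups did not overlap. Both minocycline differences were of the same size, at −0.34 on the log2 scale (SE 0.16, adjusted p = 0.585) in IgG+Mino against IgG and −0.33 (SE 0.10, adjusted p = 0.0668) in APB5+Mino against APB5. The interaction between them was 0.02 (SE 0.18, 95% confidence interval −0.37 to 0.41, adjusted p = 0.965). Axin2 and Apcdd1, both known as targets of the pathway, had opposite signs in both minocycline comparisons, none of them past the test, except that with Xist as a covariate Axin2 was −0.11 in IgG+Mino against IgG.

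Sox18 is on chromosome 2 (181311629 to 181313438, minus strand) and had the largest fitted differences of the 10 genes in APB5 against IgG, in APB5+Mino against APB5 and in the interaction. It measured 2.03, 1.52 and 2.23 CPM in IgG, 2.21, 1.29 and 1.80 CPM in IgG+Mino, 4.52, 2.56 and 4.21 CPM in APB5 and 1.72, 0.802 and 1.22 CPM in APB5+Mino. Every APB5 library lay above all 9 others, with replicates 1 and 3 well above replicate 2. The log2 fold change was 0.98 (SE 0.30, 95% confidence interval 0.27 to 1.69, adjusted p = 0.664) in APB5 against IgG, where Sox18 ranked 309 of 20350 genes by p-value. Its value in APB5+Mino against APB5 was −1.60 (SE 0.36, 95% confidence interval −2.46 to −0.75, adjusted p = 0.0510), just outside the threshold. The minocycline difference in IgG retinas was −0.12 (SE 0.27, adjusted p = 0.903), and the interaction was −1.47 (SE 0.46, adjusted p = 0.182). Without APB5 replicate 3 the differences were 0.88 in APB5 against IgG (adjusted p = 0.812) and −1.50 in APB5+Mino against APB5 (adjusted p = 0.0137).

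Whether Sox18 was called in APB5+Mino against APB5 depended on the setting. It was called in 6 of 9 other settings, with adjusted p-values from 0.000602 with DESeq2 and 0.00455 with voom to 0.0465 with a minimum of 10 counts in every library. It was not called with RLE scaling (adjusted p = 0.0505), with library size only (0.0535) or with the replicate number as a block (0.0641). It was called without APB5 replicate 2 or without APB5 replicate 3 (adjusted p = 0.0327 and 0.0137), and not called without APB5 replicate 1 or any APB5+Mino library (0.107 to 0.214). The estimate itself stayed between −1.90 and −1.36 when a library was left out. In the interaction, DESeq2 and voom called it and the other 6 settings and all 12 left-out libraries did not. No other gene of the 10 was called in any comparison under any setting, but several passed the adjusted p-value below the fold threshold in a few of them. These were, in APB5+Mino against APB5, Apcdd1 in 3 of 15 alternatives (0.0187 with DESeq2, 0.0276 with voom and 0.0343 without APB5 replicate 3), Sox17 in 2 (0.0239 with voom and 0.0223 without APB5 replicate 3) and Tspan12 in 1 (0.0391 with Xist as a covariate), beside Lrp5 in 7. Fzd4 passed in APB5+Mino against IgG+Mino in 3 of 15 (0.0186 with the replicate block, 0.0135 with voom and 0.00788 without IgG+Mino replicate 1), in IgG+Mino against IgG with voom (0.0473) and in the interaction with voom (0.0157). Lrp5 passed in APB5 against IgG with the covariate (0.0343) and in the interaction with voom (0.0201).

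**Figure D3:**
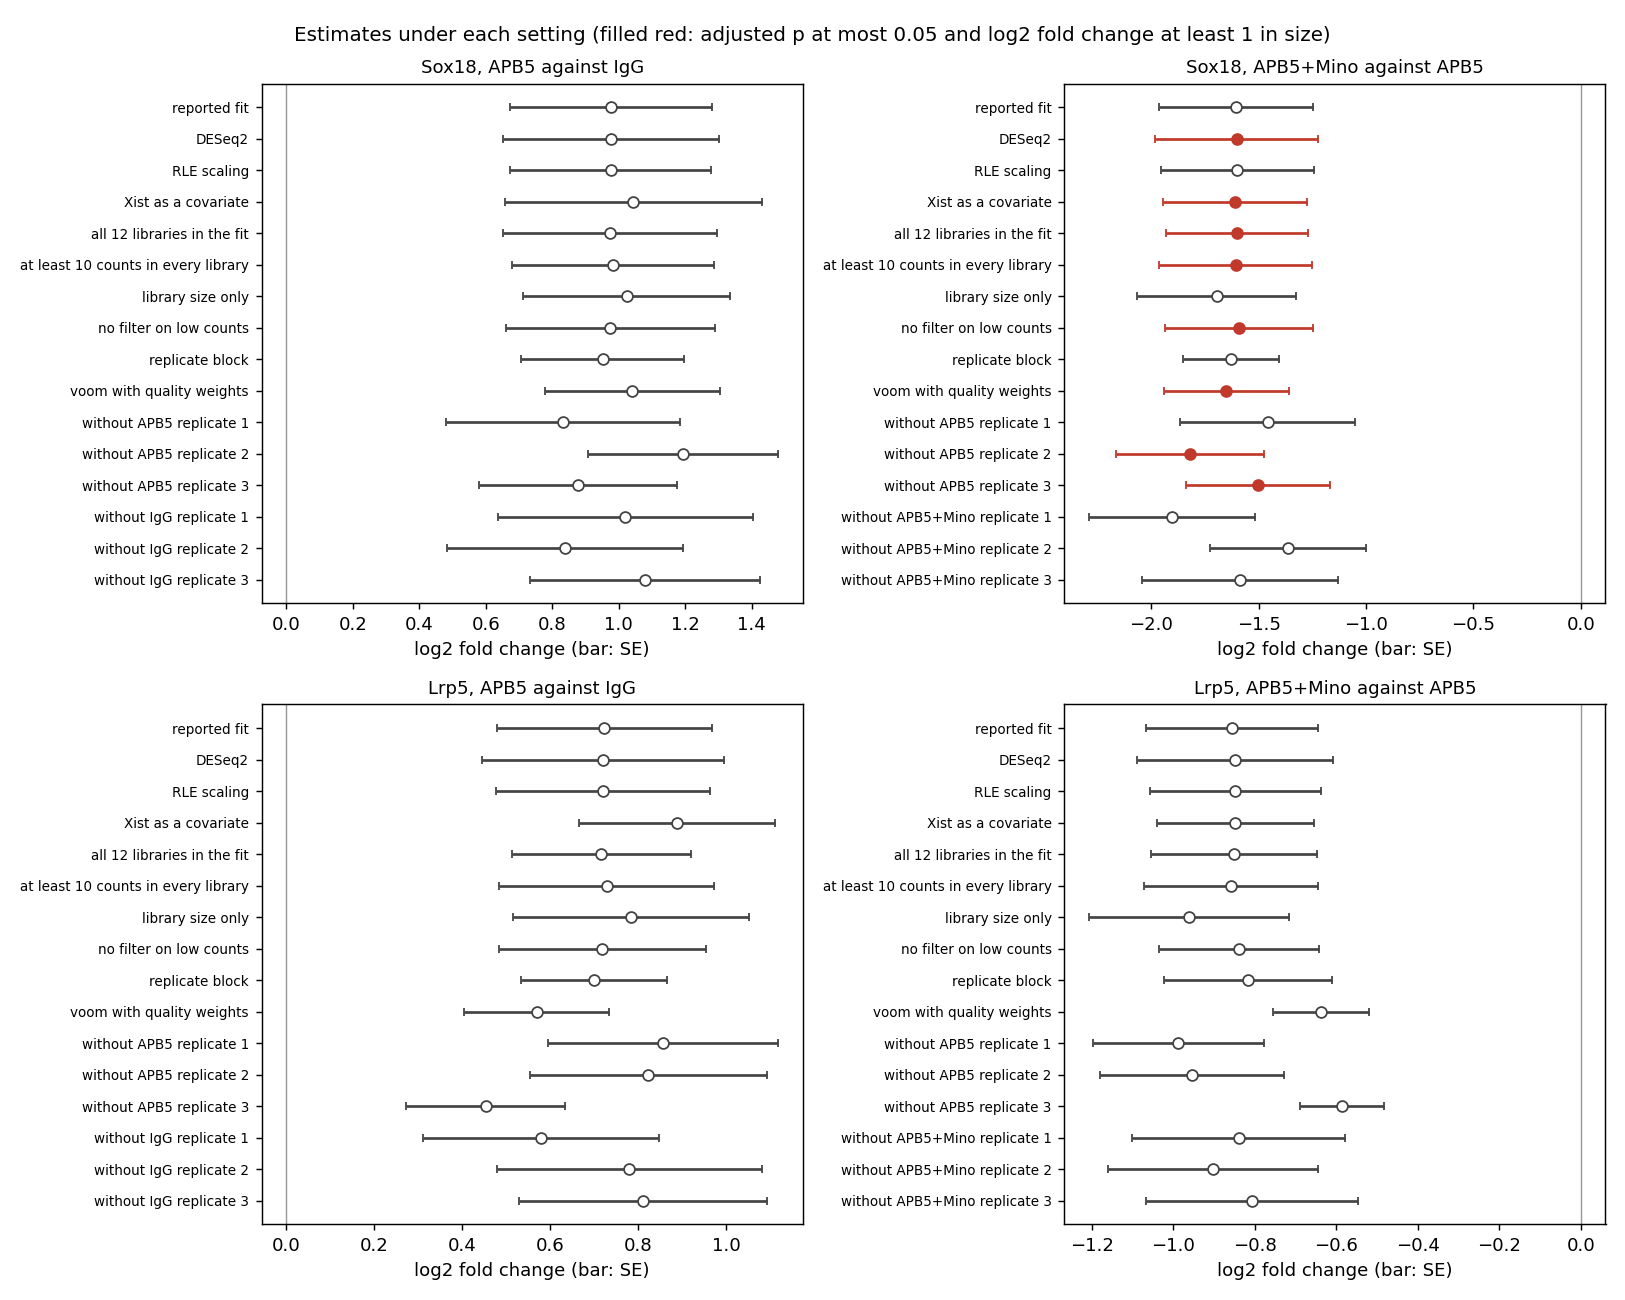
Log2 fold change (x axis, bars are the SE) of Sox18 and Lrp5 in APB5 against IgG and in APB5+Mino against APB5 under each setting (y axis). Filled red points are called. All estimates keep their sign, and only Sox18 in APB5+Mino against APB5 is called, in 8 of 15 alternatives.

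Sox17, needed for arterial identity, is on chromosome 1 (4561151 to 4567784, minus strand). It measured 2.85, 2.52 and 3.87 CPM in IgG, 2.15, 1.22 and 1.73 CPM in IgG+Mino, 3.69, 3.16 and 1.93 CPM in APB5 and 1.77, 2.15 and 2.24 CPM in APB5+Mino. The IgG+Mino libraries lay below the IgG libraries, and APB5 replicate 3 lay below the other APB5 libraries, unlike Sox18 and Sox7. The log2 fold change was −0.86 (SE 0.27, 95% confidence interval −1.47 to −0.24, adjusted p = 0.585) in IgG+Mino against IgG, a comparison in which sex cannot be told apart from treatment. There 16 of 18 endothelial markers were also lower, with a median of −0.45. Relative to their sum Sox17 differed by −0.82 on the log2 scale, and relative to their geometric mean by −0.43 (exact permutation p = 0.2 each, two-sided). Relative to Pecam1 plus Cdh5 the difference was −0.63 (exact permutation p = 0.1, two-sided, the smallest that 3 against 3 libraries can give). The part of the endothelial RNA in the Sox17 level was not tested. In APB5+Mino against APB5 the log2 fold change of Sox17 was −0.52 (SE 0.28, adjusted p = 0.221), and −0.74 (adjusted p = 0.0223) without APB5 replicate 3.

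Sox7, the third of the group, is on chromosome 14 (64181006 to 64188352, plus strand). It measured 0.647, 0.560 and 1.14 CPM in IgG, 0.471, 0.531 and 0.612 CPM in IgG+Mino, 1.21, 0.602 and 1.78 CPM in APB5 and 0.931, 0.646 and 0.470 CPM in APB5+Mino. Groups overlapped in every comparison, and the lowest APB5 library was replicate 2, as for Sox18. For Sox7 the log2 fold change was 0.63 (SE 0.48, 95% confidence interval −0.48 to 1.75, adjusted p = 0.740) in APB5 against IgG and −0.83 (SE 0.46, 95% confidence interval −1.92 to 0.26, adjusted p = 0.231) in APB5+Mino against APB5. These intervals are the widest of the 10 genes and would include changes as large as those of Sox18.

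The SOXF genes are endothelial, and in whole retina fewer endothelial cells and less RNA per cell cannot be told apart, so their levels were also set against 18 endothelial markers that include none of the 10 genes. The summed marker level was 551 ± 27.5 CPM in APB5, 529 ± 22.2 in IgG, 515 ± 71.8 in IgG+Mino and 451 ± 26.7 in APB5+Mino (n = 3). It was lower in all 3 APB5+Mino libraries than in the APB5 libraries (log2 difference −0.29, exact permutation p = 0.1, two-sided, the smallest that 3 against 3 libraries can give). Podxl, Kdr and Flt1 made up 78.0% of this sum. Over the 18 markers the median log2 fold change was larger, −0.80, with 17 of 18 lower. Of these 18, 3 were called, beside 1.66% of all genes. The median in APB5 against IgG was 0.34, or 0.04 without APB5 replicate 3. Markers of pericytes and smooth muscle moved with these endothelial markers in APB5+Mino against APB5. Of 14 tested, 13 were lower and 2 were called, beside the same 1.66% of all genes. Their median was −1.32, or −0.60 without APB5 replicate 3. Their part in the SOXF differences was not tested.

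Per endothelial RNA, Sox18 was 0.688% ± 0.209 of the sum in APB5, 0.364% ± 0.0623 in IgG, 0.356% ± 0.141 in IgG+Mino and 0.280% ± 0.109 in APB5+Mino (n = 3). Each APB5 library was above all IgG and all APB5+Mino libraries, but IgG+Mino replicate 1 (0.503%) was above APB5 replicate 2 (0.447%). The log2 difference was 0.88 in APB5 against IgG and −1.33 in APB5+Mino against APB5 (exact permutation p = 0.1 each, two-sided), and with the geometric mean of the 18 markers, which weights them equally, it was 0.77 and −0.87. Sox17 was 0.580% ± 0.110 in IgG, 0.343% ± 0.141 in IgG+Mino, 0.527% ± 0.145 in APB5 and 0.457% ± 0.0637 in APB5+Mino, and Sox7 was 0.146% ± 0.0522, 0.105% ± 0.0130, 0.221% ± 0.119 and 0.151% ± 0.0514. Neither was separated between APB5 and the groups beside it, with exact permutation p-values of 0.5 to 0.6 in APB5 against IgG and 0.6 in APB5+Mino against APB5, and against the geometric mean both differences in APB5+Mino against APB5 changed sign, to 0.28 for Sox17 and 0.01 for Sox7.

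**Figure D4:**
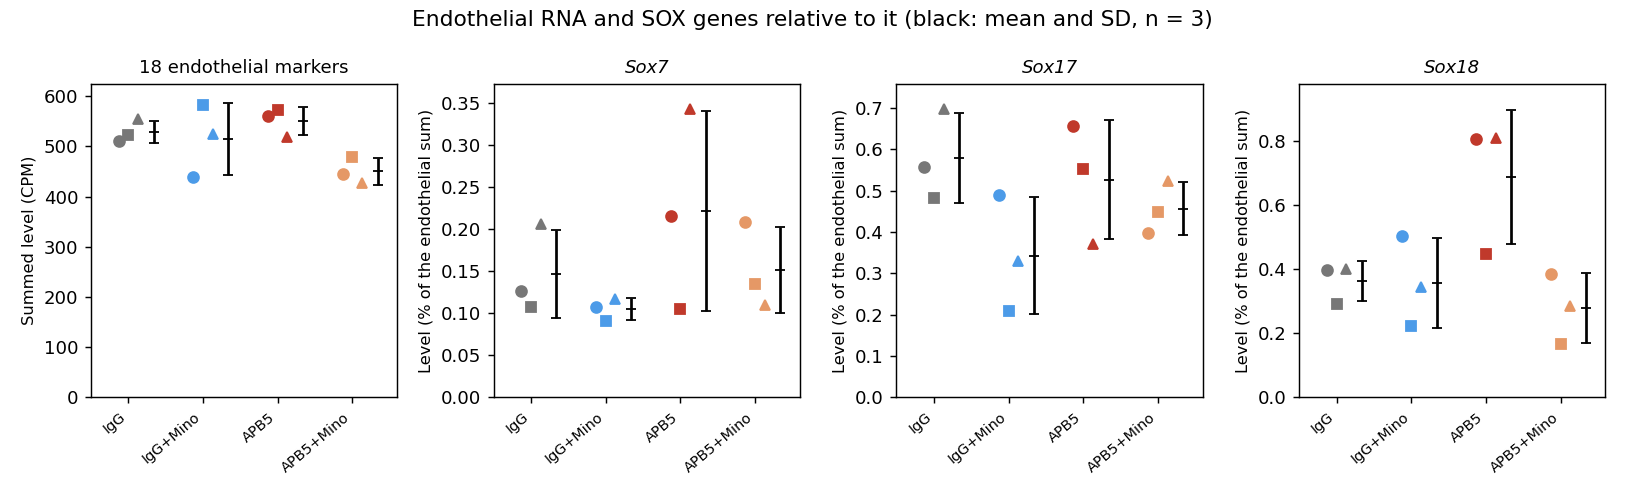
Summed CPM of 18 endothelial markers (left) and Sox7, Sox17 and Sox18 as a percent of that sum (y axes from 0) in the 12 libraries by group. Symbols are replicates and black bars are the mean and SD of 3 libraries. Sox18 is 0.447% to 0.811% in APB5 and 0.167% to 0.386% in APB5+Mino.

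The wider pathway was described by 6 lists of genes. The lists were not sorted by whether the pathway raises or lowers a gene, so their medians do not measure its activity. In APB5 against IgG none of their genes passed the test, and the median log2 fold change was 0.33 for 13 tested Wnt ligands and secretion factors, 0.15 for 18 other receptors and coreceptors, 0.18 for 17 secreted and membrane modulators, 0.01 for 25 intracellular components, 0.32 for 13 other target genes of beta-catenin and 0.05 for 17 endothelial barrier genes under Norrin and Wnt control, beside −0.002 for all genes. Ctnnb1, which encodes beta-catenin itself, was 335 ± 18.2 CPM in APB5 and 312 ± 23.8 in IgG (log2 fold change 0.11, SE 0.13, adjusted p = 0.827). Slc2a1, the glucose transporter of barrier endothelium that photoreceptors and glia also express, was 270.3 ± 35.9 against 264 ± 39.2 CPM (0.05, SE 0.17, adjusted p = 0.946), Dkk3 was 882 ± 129 against 784 ± 82.8 CPM (0.18, SE 0.18, adjusted p = 0.793) and Lrp6 was 70.4 ± 16.4 against 66.2 ± 19.8 CPM (0.10, SE 0.26, adjusted p = 0.929). Kremen1, a receptor for Dkk proteins, did not overlap between the groups at 78.6 ± 43.1 against 39.6 ± 6.26 CPM (1.01, SE 0.36, adjusted p = 0.664), as held for 7.79% of all genes in that direction. Wls, which escorts Wnt proteins out of the cell, was 14.8 ± 15.4 against 7.14 ± 1.13 CPM (1.07, SE 0.67, adjusted p = 0.705). Both had a large spread between the APB5 libraries. Without APB5 replicate 3 the median of the ligands was −0.003 and that of the target genes 0.15. In IgG+Mino against IgG none of the lists' genes passed either, with medians of 0.24, 0.001, 0.06, 0.11, 0.01 and −0.18 in the same order.

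The barrier genes in APB5+Mino against APB5 had 4 members that fell and 1 that rose among 17 at any fold, of which 3 were called, beside 4.82% and 1.66% of all genes. Cldn5, a tight junction protein of endothelium, measured 22.1, 17.5 and 22.3 CPM in APB5 and 7.48, 6.01 and 5.96 CPM in APB5+Mino (log2 fold change −1.68, SE 0.16, adjusted p = 0.0417). Slc38a5, an amino acid transporter, measured 1.43, 1.44 and 2.39 CPM against 0.412, 0.470 and 0.526 CPM (−1.92, SE 0.32, adjusted p = 0.0461). Itm2a, a membrane protein of brain and retinal endothelium, measured 18.9, 16.1 and 17.7 CPM against 8.79, 9.08 and 8.29 CPM (−1.02, SE 0.12, adjusted p = 0.0430). For all 3 genes the APB5+Mino libraries lay below every library of the other groups except for Slc38a5 in IgG+Mino, whose lowest library was 0.390 CPM. Plpp3 fell by 0.70 on the log2 scale and Tfrc, the transferrin receptor, was 0.83 higher. Slc2a1 was 187 ± 14.4 CPM in APB5+Mino and 270.3 ± 35.9 in APB5 (−0.54, SE 0.14, adjusted p = 0.0572), without overlap. The median of the 17 genes was −0.54, smaller in size than the −0.80 of the endothelial markers.

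Over the 6 lists together, 10 of 99 genes tested (10.1%) passed at any fold, beside 4.82% of all genes, and 4 (4.04%) were called, beside 1.66%. Outside the barrier list the counts were 0 to 2 genes per list, and 1 of 18 is near the share of all genes. Among 18 tested modulators, 1 fell. Dkk2, a secreted protein that binds Lrp5 and Lrp6, had 15, 23 and 43 counts in APB5 and 4, 1 and 4 counts in APB5+Mino (log2 fold change −2.97, adjusted p = 0.0471), against 9 to 22 counts in the IgG and IgG+Mino libraries. Reck, which with Adgra2 forms the receptor complex for Wnt7 ligands, was 0.73 higher (adjusted p = 0.0447) and was the 1 of 18 receptors and coreceptors that passed. Ctnnb1 was 309 ± 13.6 CPM in APB5+Mino and 335 ± 18.2 in APB5 (−0.13, SE 0.11, adjusted p = 0.411). Apc, part of the complex that degrades beta-catenin, was 387 ± 52.7 against 236 ± 78.2 CPM (0.70, SE 0.25, adjusted p = 0.0946). Of the 25 intracellular components Dvl2 was 0.53 higher and Ctnnbip1, an inhibitor of beta-catenin, fell by 0.42. Of 14 tested target genes Tbx3 fell by 0.62, and of 13 Wnt ligands and secretion factors none passed. None of the 10 genes that passed at any fold did so with the replicate number as a block, with adjusted p-values of 0.0641 to 0.0681. Over all genes the number called went from 337 to 0 with this block. Each of the 4 calls was also lost when any 1 of the 3 APB5+Mino libraries was left out. With a library left out, the highest adjusted p-value was 0.214 for each of the 10 genes.

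In APB5+Mino against IgG+Mino the lists had no called gene, and 6 of 98 genes tested (6.12%) passed at any fold, against 8.09% of all genes. Cldn5 (−0.85, adjusted p = 0.0165), Itm2a (−0.66, adjusted p = 0.0177), Plpp3 (−0.44, adjusted p = 0.0458) and Nkd1, a feedback inhibitor of Wnt signaling (−0.53, adjusted p = 0.0286), fell on the log2 scale. Lgr5, a receptor for R-spondins (0.41, adjusted p = 0.0292), and Wnt5b (0.62, adjusted p = 0.0394) rose. Each was lost with 1 library or another left out, with highest adjusted p-values of 0.106 to 0.196. The barrier list had a median of −0.16 with 13 of 17 genes lower, and the endothelial markers had a median of −0.14 with 12 of 18 lower. In the interaction none of the lists' genes passed. The median was −0.32 for ligands, −0.33 for receptors, −0.52 for modulators, 0.01 for intracellular components, −0.45 for target genes and −0.30 for barrier genes, beside −0.03 for all genes. Without APB5 replicate 3 these medians were −0.26, −0.08, −0.27, −0.03, −0.205 and −0.22.

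**Figure D5:**
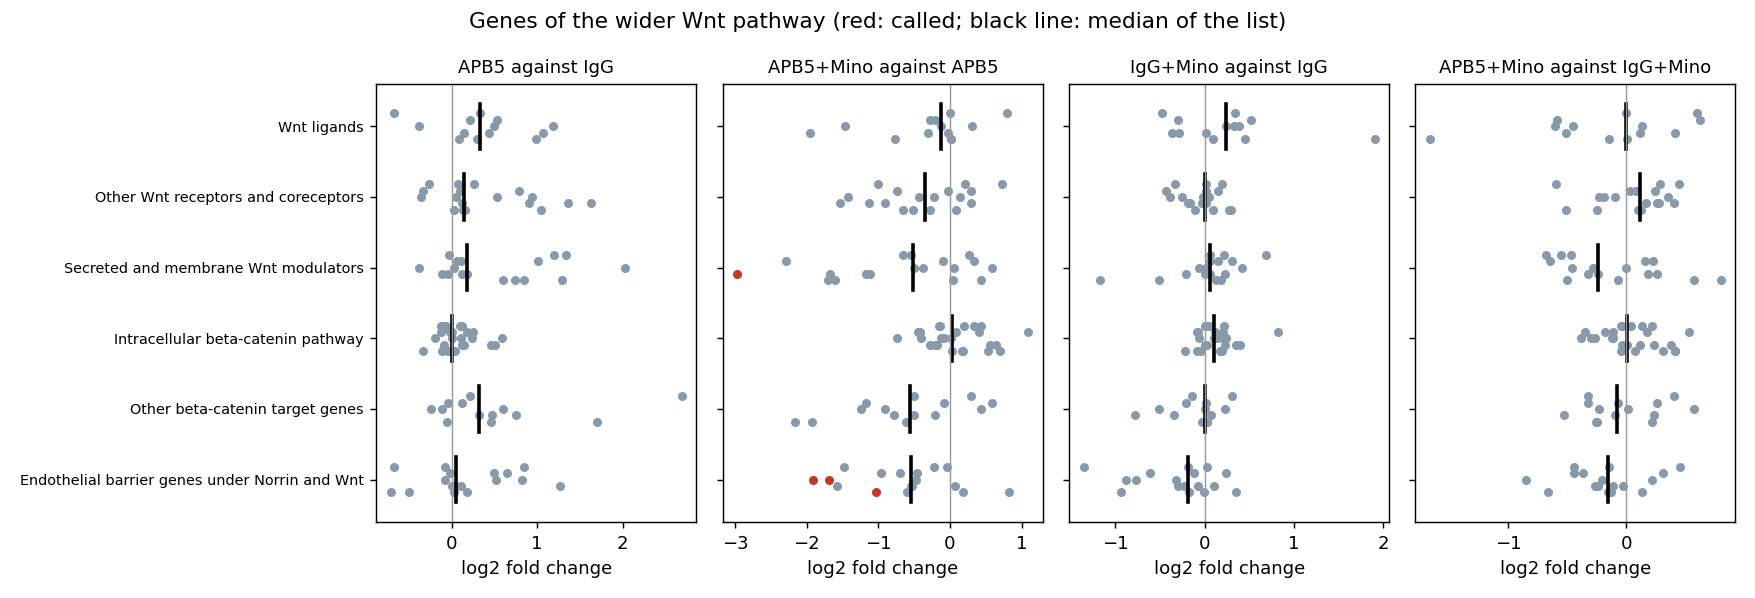
Log2 fold change (x axis) of each gene of the 6 lists (y axis) in the 4 pairwise comparisons, with a black line at the median of each list and called genes in red. The 4 red points, in APB5+Mino against APB5, are Cldn5, Slc38a5, Itm2a and Dkk2.

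Likeness of pattern was described by Pearson's r of log2 CPM over the 12 libraries, searched among 15812 genes with a mean of at least 1 CPM. These libraries share groups, and 1 of them stands apart, so r is also given without APB5 replicate 3. Axin2 was most like Eps8 (r = 0.984, and 0.942 without that library), Kank1 (0.972 and 0.906) and Heatr5a (0.972 and 0.893). Lrp5 was most like Tspan14 (0.973 and 0.931), Htra3 and Chst2 (0.969 and 0.921 each). Sox18 was most like Gm8730 (0.951 and 0.936), Cfap126 (0.947 and 0.965) and Cox5b-ps (0.929 and 0.906), of which Gm8730 and Cox5b-ps are pseudogenes whose reads may come from their parent genes. Apcdd1 was most like Sox13 (0.931 and 0.927), Gm9174 (0.902 and 0.896) and Tek (0.884 and 0.913), the last an endothelial receptor, and Sox17 most like Ppih (0.858 and 0.862), Nubpl (0.835 and 0.831) and Ptprb (0.834 and 0.831), the last an endothelial phosphatase.

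For the remaining genes, Ndp was most like Eif4a-ps4 (0.907 and 0.875), Gpr19 (0.888 and 0.864) and Gm6278 (0.877 and 0.870). Fzd4 was most like Fem1b (0.921 and 0.917), Ahr (0.914 and 0.918) and Setbp1 (0.912 and 0.920), and Tspan12 most like Pip4p2 (0.931 and 0.894), Sv2a (0.930 and 0.894) and Id4 (0.918 and 0.898). Lef1 was most like Acad10 (0.887 and 0.899), C630043F03Rik (0.846 and 0.844) and Bet1 (0.845 and 0.842), and Sox7 most like Slc10a4 (0.942 and 0.902), Rrad (0.897 and 0.804) and Ncf1 (0.889 and 0.821). No gene of the 10 was among the most alike of another. Between the 10 genes r ran from −0.691 for Axin2 with Sox7 to 0.735 for Ndp with Sox7. Without APB5 replicate 3 these pairs had r = −0.315 and 0.627, and the range ran from −0.667 for Axin2 with Apcdd1 to 0.728 for Apcdd1 with Sox17. Lrp5 and Sox18, which were both highest in APB5, had r = 0.670, or 0.520 without that library.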

How the data were processed

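RNA was measured in 12 retinal libraries, 3 per group. The authors made strand-specific poly-A libraries, sequenced them as single reads, converted them with bcl2fastq 2.20 and aligned and counted them with the DRAGEN RNA pipeline on mm39 with its NCBI annotation. The pipeline's version and whether counting used strand are not given in the sources used here. The values deposited by the authors and used here are raw counts of reads per gene, with 3 repeated columns that were identical to their originals. Deposited tables of the authors' own comparisons (fold changes and p-values) were not used. Axin2, Lef1, Lrp5, Sox17, Sox18 and Tspan12 share exon positions with genes on the opposite strand in GENCODE M39, so without strand their reads could not be told apart.

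Genes passed filterByExpr, libraries were scaled by TMM, and the 2 groups compared were fitted with edgeR 4.0.16 in R 4.3.3 (quasi-likelihood test, Benjamini-Hochberg adjustment over all genes tested, two-sided), with all 12 libraries for the interaction. CPM were computed here from library sizes scaled by TMM factors of all 12 libraries. Called genes had an adjusted p-value no larger than 0.05 and a log2 fold change of 1 or more in size. On simulated counts, 170 of 200 genes changed by 4-fold were recovered in APB5 against IgG (20006 genes, 20 unchanged genes called) and 177 in APB5+Mino against APB5 (19944 genes, 5 unchanged genes called). The simulated libraries had neither the shared shift of APB5 replicate 3 nor the sex imbalance. Smaller changes, such as those fitted for the 10 genes, were not simulated, so these counts do not give the recovery for them. Coordinates and transcript lengths are those of GRCm39. The 10 genes, the lists and the tests were chosen with earlier results of these data known.

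Named genes were the 10 genes, list genes that were called (up to 3 per direction and list by smallest p) or otherwise up to 2 of highest mean level per list, the 3 most alike genes for each of the 10, Pdgfrb and Xist. List genes that passed at any fold without being called were named after their values were seen. For APB5+Mino against APB5, deviations from the group means correlated by 0.134, 0.182 and 0.140 between libraries of the same replicate number, so the numbers may pair those libraries. In every other comparison at least 1 of the 3 correlations was under 0.1. Neither the labels nor the paper say what the numbers mark. In both APB5 and APB5+Mino only replicate 3 had high Xist, and the part of sex in these correlations was not tested. The reported fit did not use the pairing, which was tried only as the replicate block. Alternatives were RLE scaling, library size only, DESeq2 1.42.0, voom with quality weights (limma 3.58.1), a fit of all 12 libraries, the replicate block, a minimum of 10 counts per library, no filter, Xist as a covariate, any fold change, and each library left out in turn.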

Additional observations from a re-analysis of the deposited data

How the results depend on the processing

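The number of genes called depended strongly on the setting, and for most settings the cause was not tested. In APB5 against IgG it was 0, and 87 with DESeq2, 27 with voom, 5 with no filter on low counts, 7 with all 12 libraries, 1184 with Xist as a covariate (which by construction sets APB5 replicate 3 apart from the other APB5 libraries), and 0 to 21 with a library left out, 21 without APB5 replicate 3. In APB5+Mino against APB5 it was 337, and 5 with library size only, 1531 with DESeq2, 1433 with voom, 568 with no filter, 1642 with all 12 libraries, 1953 with the covariate, 977 at any fold change and 0 to 1797 with a library left out (1797 without APB5 replicate 2, 956 without APB5 replicate 3, 1 without APB5 replicate 1, 0 without any APB5+Mino library). With the replicate number as a block it was 0. In IgG+Mino against IgG it was 6, and 23 with DESeq2, 124 with voom, 15 with no filter, 1 with at least 10 counts, 0 with all 12 libraries or the covariate and 6 to 10 with a library left out. In APB5+Mino against IgG+Mino it was 249, and 588 with voom, 0 with all 12 libraries or the covariate, 1621 at any fold change and 0 to 472 with a library left out. In the interaction it was 3, and 395 with DESeq2, 1046 with voom, 34 with no filter, 932 with the covariate and 0 to 113 with a library left out.

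Among the 10 genes, 0 were called in each comparison, and 1, Sox18, in APB5+Mino against APB5 with DESeq2, voom, no filter, at least 10 counts, all 12 libraries or the covariate, and 0 to 1 with a library left out. In the interaction 1, Sox18 again, was called with DESeq2 or voom. The replicate block changed no call of the 10 genes, and with it Fzd4 passed at any fold in APB5+Mino against IgG+Mino (adjusted p = 0.0186).

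Differences near 0 changed sign. In APB5 against IgG, Axin2 was 0.018 with library size only and 0.13 with voom, and Sox17 0.29 with voom. In APB5+Mino against APB5, Lef1 was 0.11 with voom, 0.002 with no filter and 0.019 with the replicate block. In IgG+Mino against IgG, Ndp was −0.008 and Lrp5 −0.048 with library size only, and with the covariate Tspan12 was 0.18 and Axin2 −0.11. In APB5+Mino against IgG+Mino, Lef1 was −0.057 with the covariate. In the interaction, Axin2 was −0.078 with voom, and Apcdd1 −0.006 with library size only, −0.066 with voom and −0.027 with the covariate. Leaving out a library gave ranges that crossed 0, of −0.14 to 0.20 for Axin2, −0.17 to 0.041 for Apcdd1 and −0.27 to 0.16 for Sox17 in APB5 against IgG, −0.22 to 0.15 for Lef1 in APB5+Mino against APB5, −0.10 to 0.30 for Ndp, −0.11 to 0.13 for Lrp5, −0.15 to 0.10 for Tspan12 and −0.33 to 0.061 for Sox18 in IgG+Mino against IgG, −0.13 to 0.22 for Lef1 and −0.11 to 0.024 for Apcdd1 in APB5+Mino against IgG+Mino, and −0.16 to 0.20 for Axin2, −0.089 to 0.13 for Apcdd1 and −0.64 to 0.12 for Sox7 in the interaction. Per endothelial RNA, the log2 differences of Sox17 ran from −0.34 to 0.073 in APB5 against IgG and from −0.41 to 0.004 in APB5+Mino against APB5 with a library left out, where the geometric mean gave 0.28 for Sox17 and 0.011 for Sox7, and that of Sox18 in IgG+Mino against IgG was 0.30 with the geometric mean, 0.10 with Pecam1 plus Cdh5 and −0.38 to 0.21 with a library left out.

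Counts per library were 25 to 119 for Sox7, 55 to 160 for Lef1 and 41 to 282 for Sox18, and each comparison rests on 3 libraries per group.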
